A study of Mus musculus with 31 samples.

Results

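In lung adenocarcinomas of mice, 1810 sites lost both Foxa1/2 binding and H3K27ac when Nkx2-1 was deleted. A site was a Foxa1/2 peak of Nkx2-1-positive tumors on chromosomes 1 to 19 that met 4 further conditions. It overlapped an Nkx2-1 peak and a positive-tumor H3K27ac island by at least 1 bp, and it overlapped no Foxa1/2 peak and no H3K27ac island of Nkx2-1-deleted tumors. These sites, called the double-loss sites, made up 8.00% (95% Wilson interval 7.66 to 8.37) of the 22611 positive-tumor Foxa1/2 peaks on those chromosomes, out of 23039 on all. They were 12.99% of the 13931 peaks co-bound by Nkx2-1 and 20.8% (19.9 to 21.7) of the 8707 co-bound peaks without a Foxa1/2 peak in deleted tumors. Foxa1/2, Nkx2-1 and H3K27ac chose the sites, so their values are given as a description. H3K4me1, H3K4me3 and H3K27me3 were not used and carry the comparisons of marks.

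Nkx2-1 is a homeodomain transcription factor that specifies lung and thyroid epithelium and maintains the identity of alveolar and airway cells. Foxa1 and Foxa2 are forkhead factors of endoderm-derived epithelia that can bind nucleosomal DNA, and they act together with Nkx2-1 at lung genes. H3K27ac marks active enhancers and promoters, H3K4me1 marks active and inactive enhancers, H3K4me3 is densest at promoters, and H3K27me3 is laid down by the Polycomb repressive complex. An enhancer with H3K4me1 but without H3K27ac is commonly called primed.

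Chromatin of pulverised lung tumors was immunoprecipitated from mice of mixed 129/B6 strain, 4 to 7 months old, whose Nkx2-1 status was given as deleted or positive. The protocols name adenovirus or lentivirus given into the trachea and tamoxifen at a low or a high dose, without tying either to a group, and the sources used here give neither the alleles, nor the promoter behind any transgene, nor whether animals were pooled. Foxa1/2 was profiled in tumors of 2 female mice (deleted) and 2 male mice (positive), Nkx2-1 in positive tumors of 2 male mice, and each of 4 histone marks in 1 male and 1 female mouse per tumor type. Sex and tumor type therefore cannot be told apart for the Foxa1/2 loss that the rule uses. The marks of a tumor type share their inputs, and 1 of these inputs also served an Nkx2-1 library. Of 31 samples, 9 were inputs, which were not used here, and the other 22 formed 11 groups. Both files of every group were identical merged lists, so each group gave 1 list and no difference has a replicate check. Intervals cover counting error over sites only. In whole tumors, fewer cells with a mark and less of it per cell cannot be told apart.

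The lists of positive tumors covered more of the genome. H3K27ac islands held 31.2 M reads over 227.1 Mb in deleted tumors and 45.7 M reads over 291.8 Mb in positive tumors. H3K4me1 islands covered 300.4 Mb (deleted) and 329.4 Mb (positive), and H3K4me3 islands 64.0 Mb (deleted) and 104.3 Mb (positive). H3K27me3 islands covered 462.6 Mb in deleted tumors and 481.3 Mb in positive tumors. They held more reads in deleted tumors, 19.8 M against 18.5 M. On chromosomes 1 to 19 they numbered 49382 (deleted) and 48977 (positive). With equally long H3K27ac lists the rule found 1160 sites, with Foxa1/2 lists of equal peak number 1191, and with the upper 50% of the factor lists by score 675.

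Foxa1/2 scores at the double-loss sites lay near the middle of their list and Nkx2-1 scores above it. The Foxa1/2 score, which the authors' peak caller gave each peak, had a median of 192 (quartiles 106 and 414), the 51.5th percentile of all positive-tumor Foxa1/2 peaks. The median was 169 at the 6345 co-bound sites that lost Foxa1/2 and kept H3K27ac, 561 at the 5224 co-bound sites that kept Foxa1/2, and 115 at the 910 sites that lost Foxa1/2 and H3K27ac without an Nkx2-1 peak. These 3 classes serve as comparison below, and the remaining 552 co-bound lost sites had no H3K27ac in positive tumors. The median Nkx2-1 score was 241 at the double-loss sites, the 65.7th percentile of its list, against 290 where H3K27ac was kept and 232 where Foxa1/2 was kept.

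The summits of Foxa1/2 and Nkx2-1 lay close together at the double-loss sites. Their median distance was 52 bp, against 68 bp where H3K27ac was kept and 79 bp where Foxa1/2 was kept. Summits within 100 bp of each other were found at 73.5% (71.5 to 75.5) of the double-loss sites, against 63.3% (62.1 to 64.5) and 57.7% (56.4 to 59.0) in those classes. A single Nkx2-1 peak overlapped 1804 of the sites and 2 peaks overlapped the other 6.

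H3K27ac islands at the double-loss sites were narrower and held fewer reads than those at co-bound sites that kept H3K27ac. The positive-tumor island had a median width of 3600 bp, 339 reads and 95.3 reads per kb. Where H3K27ac was kept, the medians were 10000 bp, 1967 reads and 191 reads per kb. Lost sites without Nkx2-1 that lost H3K27ac had 2400 bp, 176 reads and 80.0 reads per kb. Over all positive-tumor H3K27ac islands the medians were 2400 bp, 221 reads and 90.25 reads per kb, below those of the double-loss sites in each measure. The 1810 sites lay on 1824 distinct islands, of which 1752 held 1 site, 69 held 2 and 3 held 3. At 1489 sites (82.3%, 80.4 to 84.0) no deleted-tumor island touched any part of the acetylated island, and at 321 (17.7%) a deleted-tumor island remained on it outside the peak. The nearest deleted-tumor H3K27ac island lay a median of 12921 bp away, with 37 sites nearer than 200 bp and 148 nearer than 1 kb. The nearest deleted-tumor Foxa1/2 peak lay a median of 58276.5 bp away, and 12 sites had such a peak within 1 kb. Over all positive-tumor Foxa1/2 peaks, 57.9% were lost, and H3K27ac was lost at 14.7% of those that had it.

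H3K4me1 remained at most double-loss sites but not at all of them. An H3K4me1 island overlapped 1444 sites in deleted tumors (79.8%, 77.9 to 81.6) and 1808 in positive tumors (99.9%, 99.6 to 99.97). The mark was lost at 364 sites and gained at 0, a change of -20.1 percentage points (Newcombe interval for paired shares -22.0 to -18.3). Over all positive-tumor Foxa1/2 peaks it was lost at 5.66% and gained at 0.517%. The change was negative on 19 of 19 chromosomes, between -27.2 points on chromosome 10 and -11.6 points on chromosome 11. Restricted to the upper 50% of islands by reads, H3K4me1 overlapped 25.7% of the sites in deleted tumors and 83.6% in positive tumors.

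The loss of H3K4me1 set the double-loss sites apart from the other co-bound classes. Where H3K27ac was kept, H3K4me1 changed by -0.394 points, and where Foxa1/2 was kept, by 0.0957 points. The change at double-loss sites differed by -19.7 points (-21.6 to -17.9) from sites that kept H3K27ac and by -20.2 points (-22.1 to -18.4) from sites that kept Foxa1/2, each with this direction on 19 of 19 chromosomes. Lost sites without Nkx2-1 that lost H3K27ac changed by -24.1 points. The double-loss sites differed from them by 3.96 points (0.563 to 7.38), with this direction on 9 of 19 chromosomes, and by 0.142 points (-2.88 to 3.20) when only islands over the summit were counted and factor summits had to lie within 200 bp. With the upper 50% of islands by reads the sign turned, to -18.0 points.

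**Figure D1:**
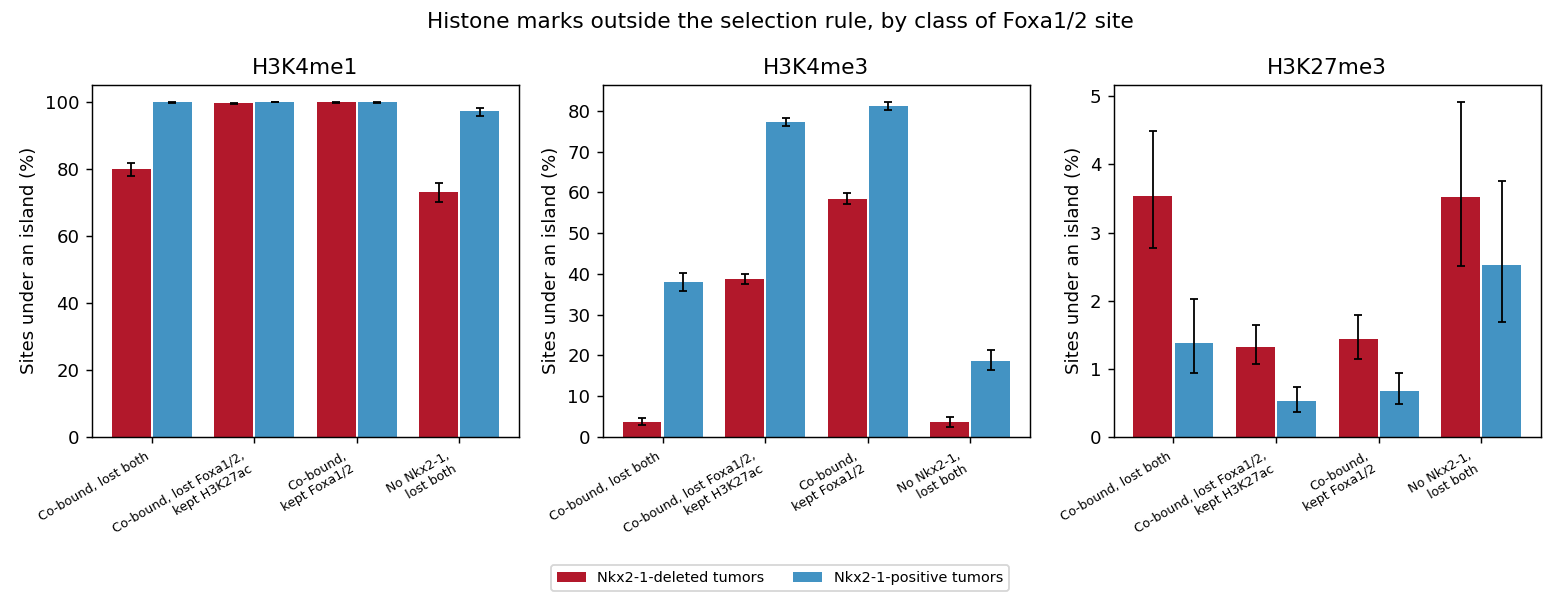
Share of sites (%) under an H3K4me1, H3K4me3 or H3K27me3 island in deleted tumors (red, left) and positive tumors (blue, right) for the double-loss sites ("lost both") and 3 other classes; bars are shares of pooled lists and error bars 95% Wilson intervals over sites. H3K4me1 at co-bound double-loss sites stands at 79.8% (deleted) and 99.9% (positive), while both other co-bound classes stay above 99% in both.

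The gap to the other co-bound classes was also present among sites with H3K4me1 islands of similar read number, and it was smaller where reads were many. Sites were grouped by quartiles of the reads in the positive-tumor H3K4me1 island, taken over all positive-tumor Foxa1/2 peaks under the mark, an alternative added after the data had been seen. In the group with the fewest reads, 68.4% (65.1 to 71.5) of 801 double-loss sites kept H3K4me1, against 98.1% (96.8 to 98.8) of 723 sites that kept H3K27ac. In the group with the most reads, 94.8% (88.4 to 97.8) of 96 double-loss sites kept it, against 100% (99.8 to 100) of 2053. The difference was -29.6 points in the lowest group, -10.9 and -12.2 points in the middle groups and -5.21 points (-11.6 to -2.24) in the highest. Against lost sites without Nkx2-1, the difference within these 4 groups lay between -1.54 and 3.81 points, and each interval included 0. The covered length of the positive-tumor H3K4me1 island was taken over all 1808 double-loss sites that had one, including those that lost the mark. In deleted tumors a median of 66.7% of this length was still covered. The medians were 93.2% where H3K27ac was kept, 98% where Foxa1/2 was kept and 71.4% at lost sites without Nkx2-1. Shortening at only those sites that kept the mark was not measured.

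**Figure D2:**
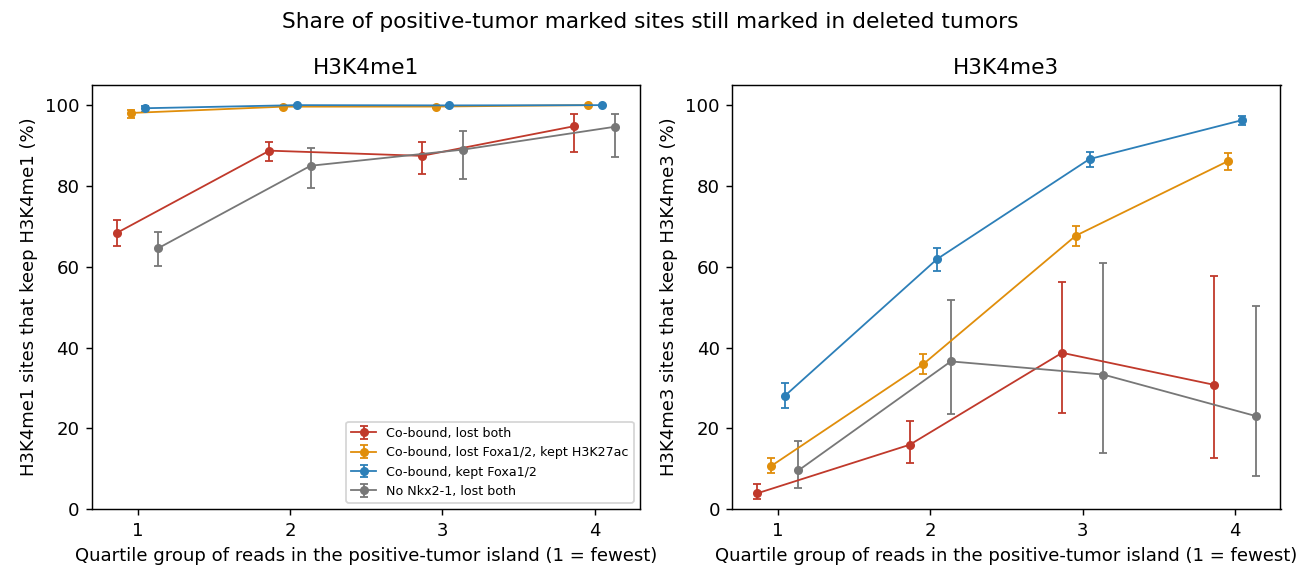
Share of sites marked in positive tumors that were still marked in deleted tumors (%), for H3K4me1 and H3K4me3, in 4 quartile groups of the reads in the positive-tumor island (1 = fewest); points are shares per class and error bars 95% Wilson intervals. Double-loss sites kept H3K4me1 at 68.4% with the fewest reads and 94.8% with the most, below the other co-bound classes in each group.

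H3K4me3 was present at a minority of the double-loss sites in positive tumors, and few of these carried it in deleted tumors. An island overlapped 65 sites in deleted tumors (3.59%, 2.83 to 4.55) and 688 in positive tumors (38.0%, 35.8 to 40.3). It was lost at 624 sites and gained at 1, a change of -34.4 points (-36.6 to -32.2), with this direction on 19 of 19 chromosomes. Over all positive-tumor Foxa1/2 peaks it was lost at 24.9% and gained at 0.703%. The positive-tumor islands had a median of 73 reads and 55 reads per kb, against 192 reads and 78.9 reads per kb where H3K27ac was kept. When the longer H3K4me3 list was shortened, by read density, to the covered length of the other, 3.59% of the sites carried the mark in deleted tumors and 1.88% in positive tumors. The change was then 1.71 points (0.891 to 2.61), so the direction turned. Among the upper 50% of islands by reads it was -3.37 points.

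The change of -34.4 points was smaller in size than the -38.6 points of sites that kept H3K27ac, a difference of 4.19 points (1.67 to 6.69), with this direction on 16 of 19 chromosomes. It turned to -10.9 points with islands of equal covered length, and was -0.451 points (-3.53 to 2.63) with H3K27ac lists of equal covered length. Sites that kept Foxa1/2 changed by -22.7 points, and the double-loss sites differed from them by -11.7 points (-14.2 to -9.21; 18 of 19 chromosomes), a sign that turned to 17.5 points with the upper 50% of islands by reads. Lost sites without Nkx2-1 changed by -15.2 points, a difference of -19.3 points (-22.4 to -16.0; 19 of 19 chromosomes), against 0.943 points with islands of equal covered length.

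The share of marked sites that kept the mark gave another order. In positive tumors H3K4me3 lay on 38.0% of the double-loss sites, against 77.2% where H3K27ac was kept, 81.2% where Foxa1/2 was kept and 18.7% at lost sites without Nkx2-1. Of the 688 sites with H3K4me3 in positive tumors, 9.30% (7.35 to 11.7) kept it. The kept share was 49.8% where H3K27ac was kept, 71.3% where Foxa1/2 was kept and 18.8% (13.7 to 25.4) at lost sites without Nkx2-1, so the double-loss sites differed by -40.5 points (-42.9 to -37.7), -62.0 points (-64.4 to -59.2) and -9.52 points (-16.3 to -3.83). In the quartile group with the fewest island reads, which held 456 of the 688 sites, 3.95% kept the mark, against 10.7%, 28.0% and 9.62% in those classes. The next group kept it at 16.0% of 188 double-loss sites, against 35.9%, 61.9% and 36.6%. Both upper groups together held few double-loss sites, 31 and 13.

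H3K27me3 was rare at the double-loss sites and more frequent in deleted tumors. An island overlapped 64 sites in deleted tumors (3.54%, 2.78 to 4.49) and 25 in positive tumors (1.38%, 0.937 to 2.03). The mark was gained at 42 sites and lost at 3, a change of 2.15 points (1.47 to 2.97), with a positive sign on 17 of 19 chromosomes. Over all positive-tumor Foxa1/2 peaks it was gained at 1.40% and lost at 0.279%. The change was 0.804 points where H3K27ac was kept and 0.766 points where Foxa1/2 was kept. The double-loss sites were higher than these by 1.35 points (0.614 to 2.19) and 1.39 points (0.639 to 2.24), with this direction on 15 of 19 chromosomes for each. With H3K27ac lists of equal covered length these differences were 0.669 points (-0.133 to 1.62) and 0.700 points (-0.113 to 1.66), and both intervals included 0. The difference to lost sites without Nkx2-1 was 1.17 points (-0.0135 to 2.32).

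The size of the H3K27me3 change depended on how overlap was counted. Over all 1810 sites, an island covered the Foxa1/2 summit at 2.15% in deleted tumors, against 0.884% in positive tumors. With islands counted over the summit and factor summits within 200 bp, which left 1554 sites, H3K27me3 changed by 0.772 points (0.302 to 1.38), and with an overlap of 50% of the shorter interval by 0.920 points (0.424 to 1.53). Under these rules the differences to both other co-bound classes lay between 0.266 and 0.479 points, and each interval included 0. The 42 sites that gained the mark lay under 44 islands with a median width of 9000 bp (quartiles 5700 and 22250). Of these sites, 37 carried H3K4me1 in deleted tumors and 22 had carried H3K4me3 in positive tumors. An H3K27me3 island lay within 10 kb of 19.9% (18.2 to 21.8) of the double-loss sites in deleted tumors and 15.1% (13.5 to 16.8) in positive tumors. Where H3K27ac was kept these shares were 9.72% (deleted) and 6.49% (positive). Where Foxa1/2 was kept they were 10.5% (deleted) and 6.64% (positive), and at lost sites without Nkx2-1 17.4% (deleted) and 12.2% (positive).

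**Figure D3:**
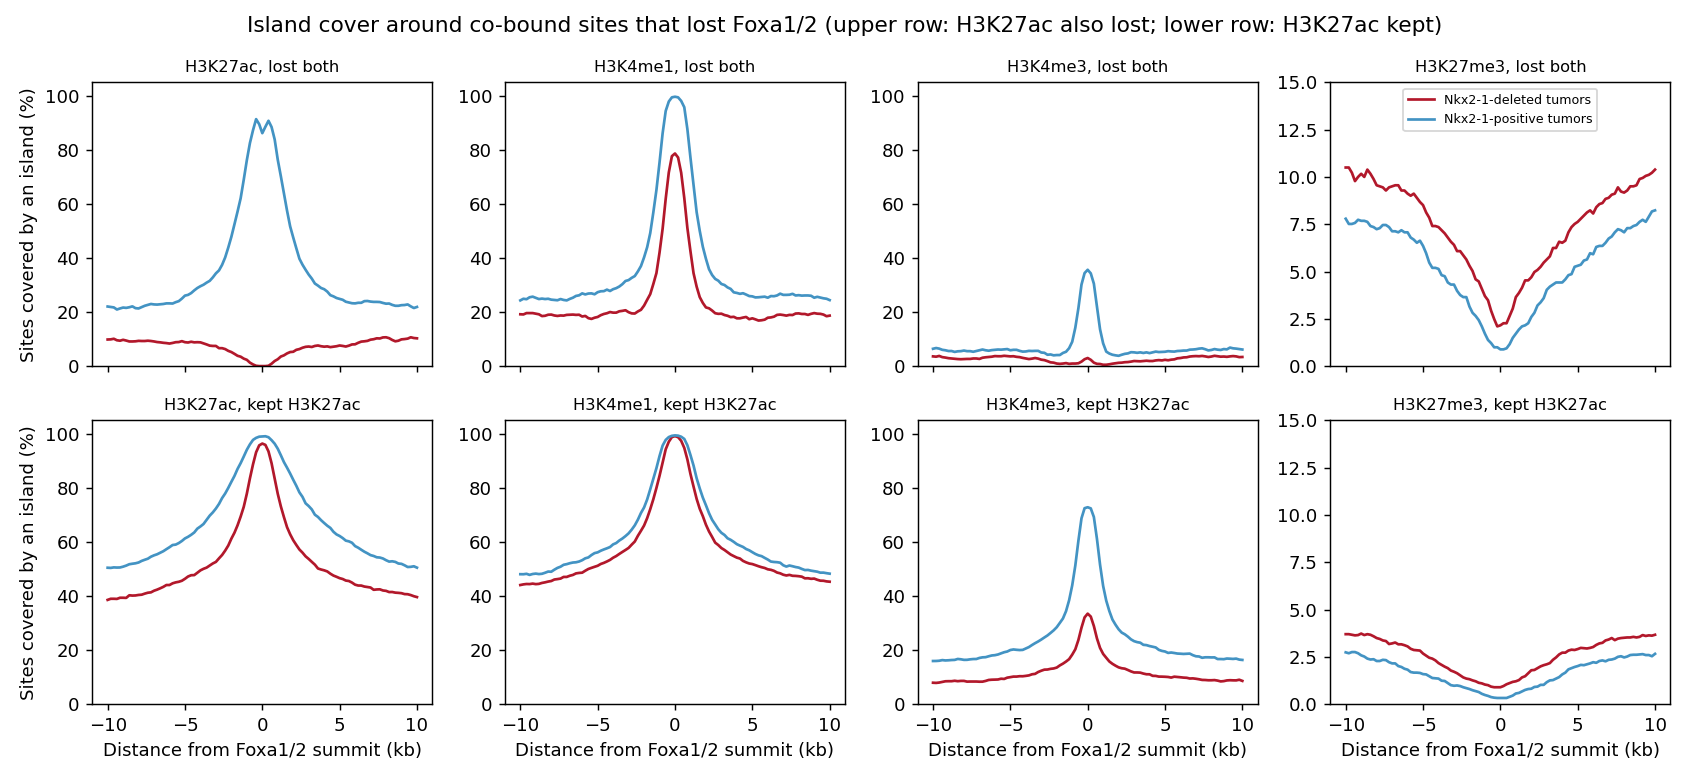
Share of sites covered by an island (%) at each distance from the Foxa1/2 summit (kb) in deleted tumors (red) and positive tumors (blue), for the 1810 double-loss sites (upper row) and the 6345 co-bound sites that lost Foxa1/2 and kept H3K27ac (lower row); the H3K27me3 panels have a shorter vertical axis. At the summit of double-loss sites, H3K4me1 covers 78.7% in deleted and 99.7% in positive tumors, and H3K27me3 is lowest near the summit and higher farther away in both tumor types.

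On both sides of the summit, cover by the active marks was lower in deleted tumors and cover by H3K27me3 was higher. At 1 kb from the summit, H3K4me1 covered 42.2% of the double-loss sites in deleted tumors and 76.2% in positive tumors. At 10 kb its cover was 18.9% in deleted tumors, against 24.4% in positive tumors. Where H3K27ac was kept, H3K4me1 at 1 kb covered 84.9% in deleted tumors and 92.0% in positive tumors. H3K4me3 at the summit of the double-loss sites covered 2.98% in deleted tumors and 35.6% in positive tumors. At 1 kb it covered 0.718% in deleted tumors, against 8.70% in positive tumors. H3K27me3 covered 2.15% at the summit in deleted tumors, against 0.884% in positive tumors, and 10.4% at 10 kb in deleted tumors, against 8.01% in positive tumors. For H3K27ac, which the rule used, cover at 10 kb was 10.1% in deleted tumors and 22.0% in positive tumors.

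The 3 marks together placed most double-loss sites in a few histories. The largest group, 773 sites (42.7%, 40.4 to 45.0), carried H3K4me1 alone of the 3 in both tumor types. This history was found at 21.9% of the sites that kept H3K27ac and 17.7% of those that kept Foxa1/2. At lost sites without Nkx2-1 its share was 54.0%. A further 552 sites (30.5%, 28.4 to 32.7) carried H3K4me1 alone in deleted tumors and H3K4me1 with H3K4me3 in positive tumors. The share of this history was 38.55% where H3K27ac was kept, 23.1% where Foxa1/2 was kept and 13.6% at lost sites without Nkx2-1. At 316 sites (17.5%, 15.8 to 19.3) none of the 3 marks was present in deleted tumors, against H3K4me1 alone in positive tumors. This last history was found at 0.362% of the sites that kept H3K27ac, at 0.0957% of the sites that kept Foxa1/2 and at 22.5% of the lost sites without Nkx2-1. In all, 360 double-loss sites (19.9%) carried none of the 3 marks in deleted tumors, and 59 (3.26%) carried H3K4me1 with H3K4me3 there.

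Among the double-loss sites, those with H3K4me3 in positive tumors more often carried H3K4me1 in deleted tumors. The share was 93.75% (645 of 688) with H3K4me3 and 71.2% (799 of 1122) without it, a difference of 22.5 points (19.2 to 25.7). H3K4me1 in deleted tumors was also more frequent at sites of higher score or more reads in positive tumors. It was present at 82.8% of the top quartile of Foxa1/2 score and 75.7% of the bottom quartile, a difference of 7.06 points (1.78 to 12.3). For the Nkx2-1 score these shares were 84.5% and 75.4% (difference 9.07 points, 3.88 to 14.2), and for reads in the H3K27ac island 83.2% and 71.4% (11.8 points, 6.32 to 17.1). By H3K27ac reads the rise was not steady: the quartile above the bottom stood at 78.7% and the one below the top was highest, at 85.8%. Sites whose acetylated island was wholly absent from deleted tumors carried H3K4me1 there at 79.0%, against 83.5% where part of the island remained. That difference of -4.51 points had an interval of -8.75 to 0.369.

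H3K27me3 in deleted tumors followed the acetylation in the other direction. By H3K27ac island reads, it overlapped 7.91% (36 of 455) of the sites in the bottom quartile, 3.33% in the next, 1.55% in the one above and 1.33% (6 of 452) in the top quartile. The top quartile differed from the bottom by -6.58 points (-9.52 to -3.95). In positive tumors the same mark overlapped 0.664% of the top quartile and 3.74% of the bottom quartile. The share with H3K4me3 in positive tumors was 50.9% in the top quartile of Nkx2-1 score and 26.8% in the bottom quartile, a difference of 24.1 points (17.9 to 30.1).

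Around the double-loss sites, other Foxa1/2 peaks and H3K27ac islands of positive tumors were also lost more often. Since double-loss sites are lost by the rule, only Foxa1/2 peaks without Nkx2-1 and H3K27ac islands without a Foxa1/2 peak were counted, neither of which a double-loss site can be. This choice was made after the data had been seen. Of 123 such Foxa1/2 peaks within 5 kb, 75.6% (67.3 to 82.3) were lost, and of 346 at 5 to 20 kb 68.5%. At 20 to 50 kb the share was 54.4% and at 50 to 200 kb 53.2%, against 50.5% of all such peaks. Within 5 kb of co-bound sites that kept H3K27ac 55.1% were lost, and near those that kept Foxa1/2 47.6%. The double-loss sites were higher by 20.5 points (11.6 to 28.0) and 28.1 points (18.99 to 35.7). The deleted-tumor Foxa1/2 list also set the classes, so these values are a description. How far the contrast is bound to the rule was not tested, and scores of the neighbouring peaks were not compared.

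Acetylated islands nearby showed the same order of classes. Of 791 H3K27ac islands without a Foxa1/2 peak within 5 kb, 68.8% (65.5 to 71.9) were lost, followed by 54.3% at 5 to 20 kb, 45.1% at 20 to 50 kb and 39.3% at 50 to 200 kb. Over all such islands 36.4% were lost. Near sites that kept H3K27ac the share within 5 kb was 42.5%, and near sites that kept Foxa1/2 30.9%, so the double-loss sites were higher by 26.3 points (22.4 to 29.9) and 37.9 points (34.0 to 41.6). Near lost sites without Nkx2-1 it was 62% within 5 kb, 6.77 points (1.29 to 12.3) below the double-loss sites, and at 5 to 20 kb the 2 classes differed by 0.595 points (-3.00 to 4.20). The neighbouring islands within 5 kb were smaller at double-loss sites, with a median of 130 reads, against 161 where H3K27ac was kept, 150 where Foxa1/2 was kept and 139.5 without Nkx2-1. The part of island size in the difference was not tested. Deleted-tumor H3K27ac also set the classes, and the same deleted-tumor island can cover a site and its neighbour. Such islands covered 5.25% of the double-loss sites at 2 kb from the summit and 8.23% at 5 kb. Where H3K27ac was kept they covered 61.0% at 2 kb and 46.5% at 5 kb. The contrast within 5 kb is therefore partly bound to the rule, and how far was not tested.

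**Figure D4:**
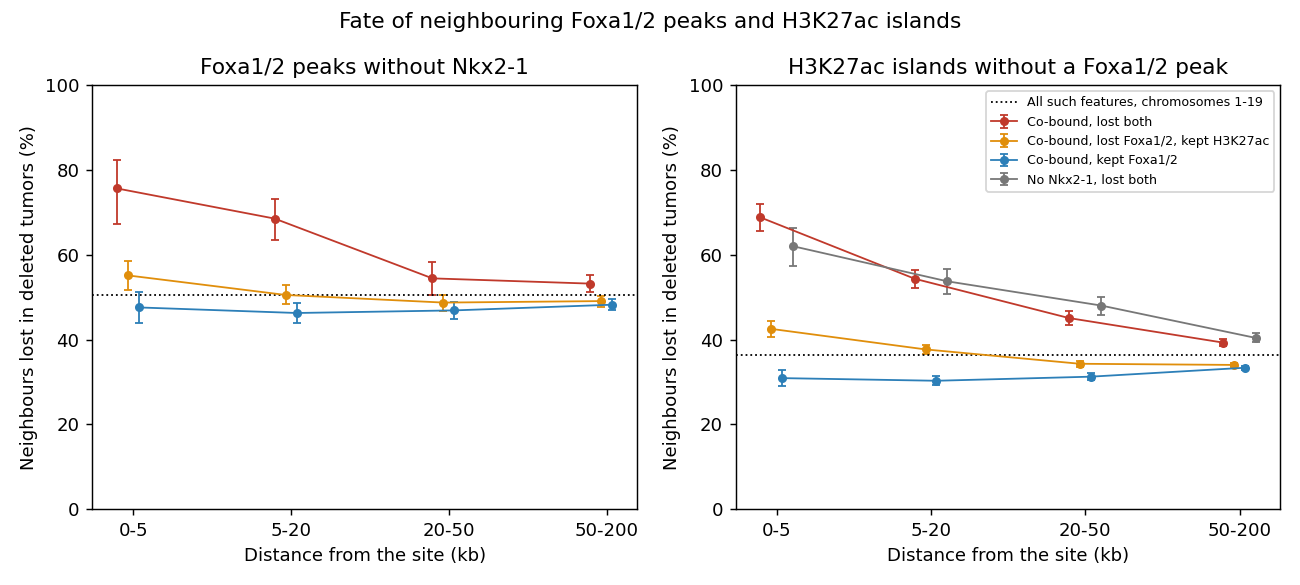
Share of neighbouring positive-tumor features lost in deleted tumors (%) by distance from the site (kb), for Foxa1/2 peaks without Nkx2-1 (left) and H3K27ac islands without a Foxa1/2 peak (right); points are shares per class, error bars 95% Wilson intervals and dotted lines the share over all such features. Around double-loss sites the share runs down from 75.6% to 53.2% for Foxa1/2 peaks and from 68.8% to 39.3% for islands with distance; sites without Nkx2-1 are shown for islands only.

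The double-loss sites lay on all 19 chromosomes. The nearest other double-loss site was a median of 208332 bp away. Such a neighbour lay within 5 kb of 143 sites (7.90%) and within 50 kb of 477 sites (26.4%). These distances were not compared with those of randomly placed sites. Their share of the co-bound lost sites was lowest on chromosome 8, at 15.9% (12.8 to 19.6), and highest on chromosome 18, at 27.01% (22.4 to 32.2). Chromosome 1 followed at 26.6% (23.2 to 30.2).

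The sites with the highest Foxa1/2 scores all retained H3K4me1. By score, 9 sites stood at or above 3100, a value that 7 of them share. Among all positive-tumor Foxa1/2 peaks 310 had this value and 351 stood at or above it, so it does not rank these 7. All coordinates are on build mm9, counted from 1. The highest score, 3214, belonged to a peak on chromosome 18 at 3617786 to 3619689, under an acetylated island of 3800 bp with 387 reads, with an Nkx2-1 score of 1145. H3K4me1 covered 95.3% of this peak in deleted tumors and 100% in positive tumors, with no H3K4me3 or H3K27me3 island in either. At all 9 sites H3K4me1 extended over at least 76.8% of the peak in deleted tumors. H3K4me3 overlapped 5 of them in positive tumors and 0 in deleted tumors. At chr2:147015766-147017562, among these 9, H3K27me3 covered 100% of the peak in both tumor types.

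On chromosome 2 at 23423594 to 23425194, a peak of score 3100 with an Nkx2-1 score of 2098 and summits 24 bp apart lay under an island of 5400 bp with 1709 H3K27ac reads. H3K4me1 covered 100% of it in both tumor types, and H3K4me3 covered 0% in deleted tumors and 100% in positive tumors. The nearest deleted-tumor H3K27ac island was 1006 bp away. On chromosome 6 at 85906921 to 85908496, both summits lay at the same base under an island of 6600 bp with 1424 reads. H3K4me3 covered 0% of that peak in deleted tumors and 82.2% in positive tumors, while H3K4me1 covered 100% in both. A peak on chromosome 1 at 120809740 to 120811592, with Foxa1/2 and Nkx2-1 scores of 3100 each, lay partly under an acetylated island of 800 bp with 56 reads. H3K27me3 covered 46.0% of it in deleted tumors and 0% in positive tumors, the highest-scoring site with this gain.

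The next gains of H3K27me3 by score, on chromosome 9 at 47217103 to 47218521 and on chromosome 15 at 42874843 to 42876284, were partial. The mark covered 21.0% of the peak on chromosome 9 and 11.0% of that on chromosome 15 in deleted tumors, and 0% of either in positive tumors. The 3 highest-scoring sites with H3K4me1 in positive tumors only had scores of 2715, 2374 and 2336. They were the peaks chr2:174477676-174479156, chr12:120619608-120621215 and chr12:78115458-78116447. H3K4me1 covered 0% of each in deleted tumors and 100% in positive tumors. None carried H3K4me3 or H3K27me3 in either. The second of these sites had a wide acetylated island, 13800 bp with 3094 reads, so a large acetylated island did not always go with retained H3K4me1.

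The H3K27ac islands that held 3 double-loss sites each were partly or wholly cleared. The island on chromosome 6 at 53864201 to 53879800 (15600 bp, 1798 reads) held 3 Foxa1/2 peaks, all lost, and 3 Nkx2-1 peaks. H3K27ac covered 0% of it in deleted tumors, and H3K4me1 covered 35.9% in deleted tumors and 61.5% in positive tumors. The island on chromosome 5 at 54826601 to 54839600 (13000 bp, 2267 reads) had H3K27ac over 0% in deleted tumors, and H3K4me1 over 61.5% in deleted tumors and 89.2% in positive tumors. H3K4me3 covered 0% of it in deleted tumors and 20% in positive tumors. The widest, on chromosome 1 at 153813201 to 153840800 (27600 bp, 3255 reads), retained H3K27ac over 14.5% of its length in deleted tumors and still held 1 deleted-tumor Foxa1/2 peak. At all 9 double-loss sites in these islands H3K4me1 covered 100% of the peak in both tumor types.

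Membership turned on few bases at the margin. The sites just inside the rule lay 0, 2 and 11 bp from a deleted-tumor H3K27ac island, namely chr6:121162601-121163650, chr15:85061752-85062398 and chr2:31843520-31844389. Those just outside overlapped such an island by 14, 15 and 21 bp, namely chr12:32245187-32246195, chr10:83862418-83863415 and chr5:77389180-77389984. H3K4me1 was present in both tumor types at all 6.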

How the data were processed

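The deposited peak lists give each Foxa1/2 and Nkx2-1 peak a score from the authors' peak caller, at least 60, and a further value that was not used. The deposited island lists give each island a read count, not scaled for depth. Bowtie, MACS 1.4.2, SICER 1.1 and build mm9 are named per the submitters' processing notes. The list names carry a p of 1e-06 for peaks, and a window of 200 bp, a gap of 200 or 600 bp and an FDR of 0.01 for islands. Reads were single-end, 40 to 50 nucleotides, per the labels' protocols. The sources used here do not give library depth.

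Scores and counts were used within a list only. A mark was present where an island overlapped the peak by 1 bp. Shares have 95% Wilson intervals, paired changes and differences Newcombe intervals, and differences of changes were formed by square-and-add. The sorting of sites into classes was checked on simulated lists. Intervals of paired changes and of differences of changes were checked on simulated independent sites only, so dependence between sites was not covered. No p-value was computed, since each group is 1 list. Sites were named by rank: highest Foxa1/2 score among all, with H3K27me3 gained or with H3K4me1 lost, islands with most sites, and sites nearest the rule's edge. Sites, lists and tests were chosen with earlier results of these data known. Genes and sequences were not analysed here, since no genome of build mm9 was used. Python 3.11.15, numpy 2.4.6 and matplotlib 3.10.9 were used.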

Additional observations from a re-analysis of the deposited data

How the results depend on the processing

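Of 128 alternative values for the compared results, 88 kept their direction within the main value's counting interval, or for counts of sites within 1.5 times, 34 moved further and 6 turned direction. Within that interval a value could still shrink: the H3K27me3 difference to lost sites without Nkx2-1, 1.17 points, lay between 0.121 and 1.55 points, and the differences to sites that kept H3K27ac and Foxa1/2 were 0.669 and 0.700 points with equal H3K27ac length. The number of double-loss sites was 675 with the upper 50% of the factor lists by score, 1160 with H3K27ac lists of equal covered length and 1191 with Foxa1/2 lists of equal length; the last 2 alternatives were chosen after seeing the data.

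The summit rule counts islands over the summit and asks for factor summits within 200 bp. The H3K4me1 change was -18.2 points with 50% overlap, -16.1 with the upper factor peaks, -57.9 with the upper 50% of islands and -17.3 with equal H3K27ac length. Its difference to sites that kept H3K27ac was -15.9, -48.2 and -17.0 points under the last 3, to sites that kept Foxa1/2 -16.1, -56.6 and -17.4 points. Against lost sites without Nkx2-1 it was 0.142 by the summit rule and -18.0 with the upper islands.

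The H3K4me3 change was -31.7 points by the summit rule, -43.7 with the upper factor peaks, -3.37 with the upper islands, 1.71 with islands of equal covered length, -39.6 with equal H3K27ac length and -38.6 with equal Foxa1/2 lists. Its difference to sites that kept H3K27ac, 4.19, was 7.94 by the summit rule, 18.96 with the upper islands, and turned to -10.9 with islands of equal length and -0.451 with equal H3K27ac length. To sites that kept Foxa1/2 it was -11.7, and -5.63 by the summit rule, -17.6 with the upper factor peaks, 17.5 with the upper islands, -25.2 with islands of equal length, -16.8 with equal H3K27ac length and -14.7 with equal Foxa1/2 lists. Against lost sites without Nkx2-1 it was -19.3, and -9.17, -0.183 and 0.943 by the summit rule, the upper islands and islands of equal length. The cut to the upper islands removes islands with few reads from both lists. The cut to equal covered length removes islands of low read density from the longer list only. Why the H3K4me3 values changed under these cuts was not tested.

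The H3K27me3 change was 0.920 points with 50% overlap and 0.772 by the summit rule; its difference to sites that kept H3K27ac was 0.291 and 0.266, and to sites that kept Foxa1/2 0.479 and 0.402. No paired analysis was possible because both files of each group are identical and no test was made; for the same reason no replicate was left out. Library depth is unknown, and the part of weak islands in the losses was not tested. With islands of equal covered length the H3K4me1 change was -19.3 points, and the H3K4me3 change was 1.71 points.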
